A study of Homo sapiens with 48 samples.

Results

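The genes of cholesterol and fatty acid synthesis were followed in PSN1 cells, a pancreatic cancer cell line, before and after selection for resistance to Talazoparib, an inhibitor of the DNA repair enzyme PARP. The set holds 33 genes chosen by symbol: 7 enzymes of the mevalonate arm, 11 enzymes of the sterol arm, 5 regulators of the SREBP pathway, 1 sterol transporter and 9 genes of the fatty acid arm. All 33 were found among the 20241 genes of the table, and all 33 passed the filter on low values. RNAseq was available from 3 groups with 3 replicates each. Parental cells are labelled as wild type with no treatment. TalaR cells are cells selected in Talazoparib. TalaR-M cells are TalaR cells kept in 50 nM Talazoparib, with a labelled time of 4 months, and TalaR-DF cells are TalaR cells taken off the drug and grown in drug-free medium, labelled as untreated at day 0, so that the name gives their origin and not their response to the drug. All 3 groups were grown in RPMI medium with fetal bovine serum, which itself supplies lipids. The sources used here do not state whether the TalaR cells were a single clone or whether the replicates came from separate cultures, so that p-values measure the spread between these samples, which may be technical.

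Cells make cholesterol from acetyl-CoA through mevalonate, farnesyl diphosphate, squalene and lanosterol, and they make fatty acids from acetyl-CoA through malonyl-CoA. Both arms are switched on by the SREBP transcription factors, which are made as precursors in the membrane of the endoplasmic reticulum. SCAP escorts the precursors to the Golgi for cleavage when sterols are low, and the INSIG proteins hold SCAP back when sterols are high. SREBP-1, the product of SREBF1, acts mostly on fatty acid genes, and SREBP-2, the product of SREBF2, acts mostly on cholesterol genes. The released factors bind sterol regulatory elements close to the start of their targets, usually beside sites for NF-Y, which binds CCAAT, and Sp1, which binds GGGCGG.

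The stretches just upstream of the start of 4 members are shown. SREBF2 was chosen because its window holds the sterol element letters given below, so that their presence there is not a result. SREBF1, INSIG1 and STARD4, which were lower in TalaR-M than in parental cells over all 9 libraries, were added after their values were seen. They were read from RefSeq on build GRCh38.p14, 5′ to 3′ on the strand of the gene. Capitals mark matches to TCACNCCAC, a spelling of the sterol regulatory element, to CCAAT, or to GGGCGG, on either strand, so that ATTGG and CCGCCC are matches on the other strand. The SREBF1 stretch is chr17:17837003-17837202 (minus strand), that of SREBF2 is chr22:41832905-41833104 (plus strand), that of INSIG1 is chr7:155297628-155297775 (plus strand) and that of STARD4 is chr5:111512591-111512785 (minus strand).
SREBF1: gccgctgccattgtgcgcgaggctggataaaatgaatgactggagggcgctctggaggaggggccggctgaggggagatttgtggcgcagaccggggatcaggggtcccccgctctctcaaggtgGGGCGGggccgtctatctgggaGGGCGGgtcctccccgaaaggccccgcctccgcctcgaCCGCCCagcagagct
SREBF2: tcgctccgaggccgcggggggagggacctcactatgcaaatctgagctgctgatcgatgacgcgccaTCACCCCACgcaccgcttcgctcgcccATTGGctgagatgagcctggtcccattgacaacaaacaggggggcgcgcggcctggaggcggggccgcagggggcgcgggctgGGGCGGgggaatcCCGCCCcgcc
INSIG1: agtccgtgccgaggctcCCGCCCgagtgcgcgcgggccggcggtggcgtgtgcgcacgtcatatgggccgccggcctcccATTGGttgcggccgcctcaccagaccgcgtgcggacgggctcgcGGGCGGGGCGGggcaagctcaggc
STARD4: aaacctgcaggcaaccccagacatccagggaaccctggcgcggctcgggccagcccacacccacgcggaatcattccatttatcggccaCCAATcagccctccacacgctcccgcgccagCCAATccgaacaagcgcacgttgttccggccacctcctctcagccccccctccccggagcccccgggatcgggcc
The INSIG2 stretch of the same kind, of 200 bases, held no match and is not printed, although INSIG2 was lower too. It came from the first of 2 RefSeq windows of INSIG2. INSIG2 still counts below among the members with GGGCGG, by a match that does not lie within this stretch. Distances are counted from the RefSeq start, which lies past the end of the printed stretch for SREBF1, INSIG1 and STARD4. The sterol element letters TCACCCCAC stand in the SREBF2 stretch, starting 133 bases before the RefSeq start and followed by an inverted CCAAT at 106 bases. The SREBF1 stretch holds GGGCGG letters 3 times and no CCAAT. In the INSIG1 stretch an inverted CCAAT stands 170 bases before the start, and 2 of its GGGCGG matches share 1 base. The STARD4 stretch holds CCAAT 2 times and no GGGCGG. Of the 33 members, 29 had a RefSeq window of 300 bases (250 before the start and 50 after it), counted on both strands. More than 1 window was listed for 10 members, and a match in any window of a gene was counted. TCACNCCAC was found in 1 of them (3.45%) against 1.54% of the 9563 tested genes with a window. CCAAT was found in 21 (72.4%) against 43.1%, GGGCGG in 28 (96.6%) against 77.5%, and CACGTG, the letters of an E-box, in 4 (13.8%) against 12.8%. These matches are letters in a window and were not measured as binding sites.

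Expression is given as log2 CPM, where CPM is the number of reads of a gene for each 1000000 reads of its library. Values under 0 were set to 0 in the deposited table, so that 0 stands for at most 1 CPM. Each library held 8387755 to 14973847 reads in genes over 1 CPM, and 1 CPM was worth between 6.97 and 14.5 reads. TalaR-M replicate 2 stood apart. It had the lowest of these sums and correlated with the other TalaR-M libraries at a Pearson r of 0.78 across genes, where those correlated with each other at 0.99. Its deviation from the mean of the other TalaR-M libraries ran from −2.78 (HMGCS1) to 2.08 (MVD) on the log2 scale among the members, and 13 of 33 deviated by more than 2-fold (39.4%) against 46.3% of the 9879 genes with a mean over 2 log2 CPM. Across the 33 members, all read from this one library, the deviation had a Spearman correlation of −0.75 with transcript length and 0.47 with GC content. Long transcripts tended to read low in it and short ones high, with exceptions such as SREBF1 (4901 bases, deviation 0.04) and FDPS (1417 bases, −0.25). Across the 9879 genes the Spearman correlation with transcript length was −0.64. Comparisons are therefore given from all 9 libraries and again with TalaR-M replicate 2 left out.

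**Figure D1:**
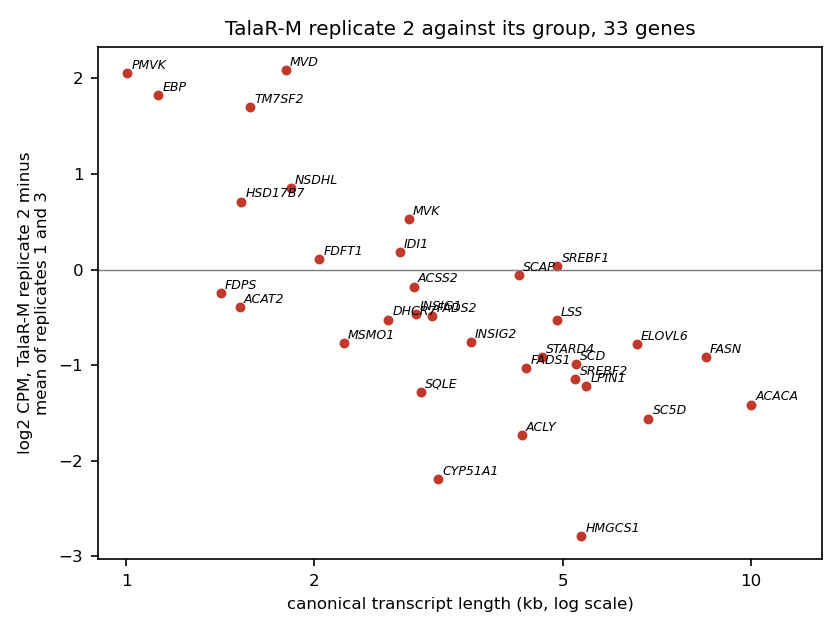
Deviation of TalaR-M replicate 2 from its fellow TalaR-M libraries, taken as a mean (y axis, log2 scale) against the length of the canonical transcript (x axis, log scale), 1 point per member. The points run from 2.08 for MVD, a short transcript, down to −2.78 for HMGCS1.

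Markers of the labelled cell type were present. The 6 epithelial and pancreatic markers summed to 1089 to 1143 CPM in parental cells and 952 to 1088 CPM in TalaR-DF cells. In TalaR-M cells they summed to 1708 to 5792 CPM, the highest sum being that of replicate 2. The markers did not move together. Against parental cells, KRT7 and MUC1 were lower and EPCAM was higher in all TalaR-DF libraries. MUC1 was also lower in TalaR-M replicates 1 and 3 (2.58 and 2.87 log2 CPM, against 3.46 to 3.52 in parental cells), and higher in replicate 2 (4.19). The sum of the 5 fibroblast markers also moved with the groups. It was 336 to 347 CPM in parental, 10.8 to 21.0 CPM in TalaR-M and 30.7 to 33.7 CPM in TalaR-DF cells. COL1A2 read 7.86 to 7.88 log2 CPM in parental cells, 0 in all TalaR-M libraries and 3.67 to 3.90 in TalaR-DF cells. DCN went the other way, at 0 in all parental and TalaR-DF libraries and 1.45 to 1.73 log2 CPM in TalaR-M cells. THY1 was at 0 in all 9 libraries. The leukocyte markers summed to 11.1 to 14.7, 4.14 to 7.11 and 1.18 to 2.55 CPM in the same order, with CD3E and LYZ at 0 throughout. PTPRC did not follow the sum: it was at 0 in parental cells and read 1.79, 0 and 0.83 log2 CPM in TalaR-M cells. The 4 endothelial markers summed to 28.8 to 30.9, 5.91 to 9.06 and 2.92 to 3.24 CPM, with VWF at 0 throughout. The 4 hepatocyte and adipocyte markers did not exceed 1.27 CPM in any library, and ALB, ADIPOQ and PLIN1 were at 0. The part of these markers in the results on lipid genes was not tested.

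The first question was how many of the lipid synthesis genes differed between TalaR and parental cells. A gene is said to pass at a Benjamini-Hochberg adjusted p under 0.05 over all 12471 genes tested with limma, whatever its fold. For some lists a count at an unadjusted p under 0.05 is added, without a share over all genes at that threshold. In TalaR-M cells against parental cells, 2 members were higher and 5 lower, where 10.3% of all genes tested were higher and 13.2% lower. In TalaR-DF cells, 1 was higher and 5 lower, where 6.77% of all genes were higher and 11.8% lower. The members that passed made up 21.2% of the 33 in TalaR-M cells against 23.6% of all genes tested, and 18.2% against 18.6% in TalaR-DF cells. As a set they therefore passed at about the rate of any gene. The median log2 fold change of the members was −0.19 in TalaR-M cells (all genes −0.09) and 0.13 in TalaR-DF cells (all genes 0.01).

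The 3 groups share an estimate of the spread of each gene. TalaR-M replicate 2 therefore also enters the SE and p-values of TalaR-DF against parental cells, but not those log2 differences. For HMGCS1 in that comparison the SE was 0.66 with it and 0.06 without it, at a log2 fold change of 0.34 in both. Calls in TalaR-DF cells over all 9 libraries are to be read with this limit. With TalaR-M replicate 2 left out, the spread shrank and more genes passed. The median SD of a member was 0.51 over the 3 TalaR-M libraries and 0.11 without replicate 2, beside 0.06 in parental and 0.10 in TalaR-DF cells. In this fit 10 members were higher and 10 lower in TalaR-M than in parental cells, where 30.2% of all genes were higher and 30% lower. In TalaR-DF cells 14 were higher and 10 lower, where the shares over all genes were 32.5% and 30.4%. The share of members that passed was 60.6% in TalaR-M cells against 60.2% of all genes, and 72.7% in TalaR-DF cells against 62.9%. Both comparisons share the 3 parental libraries.

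**Figure D2:**
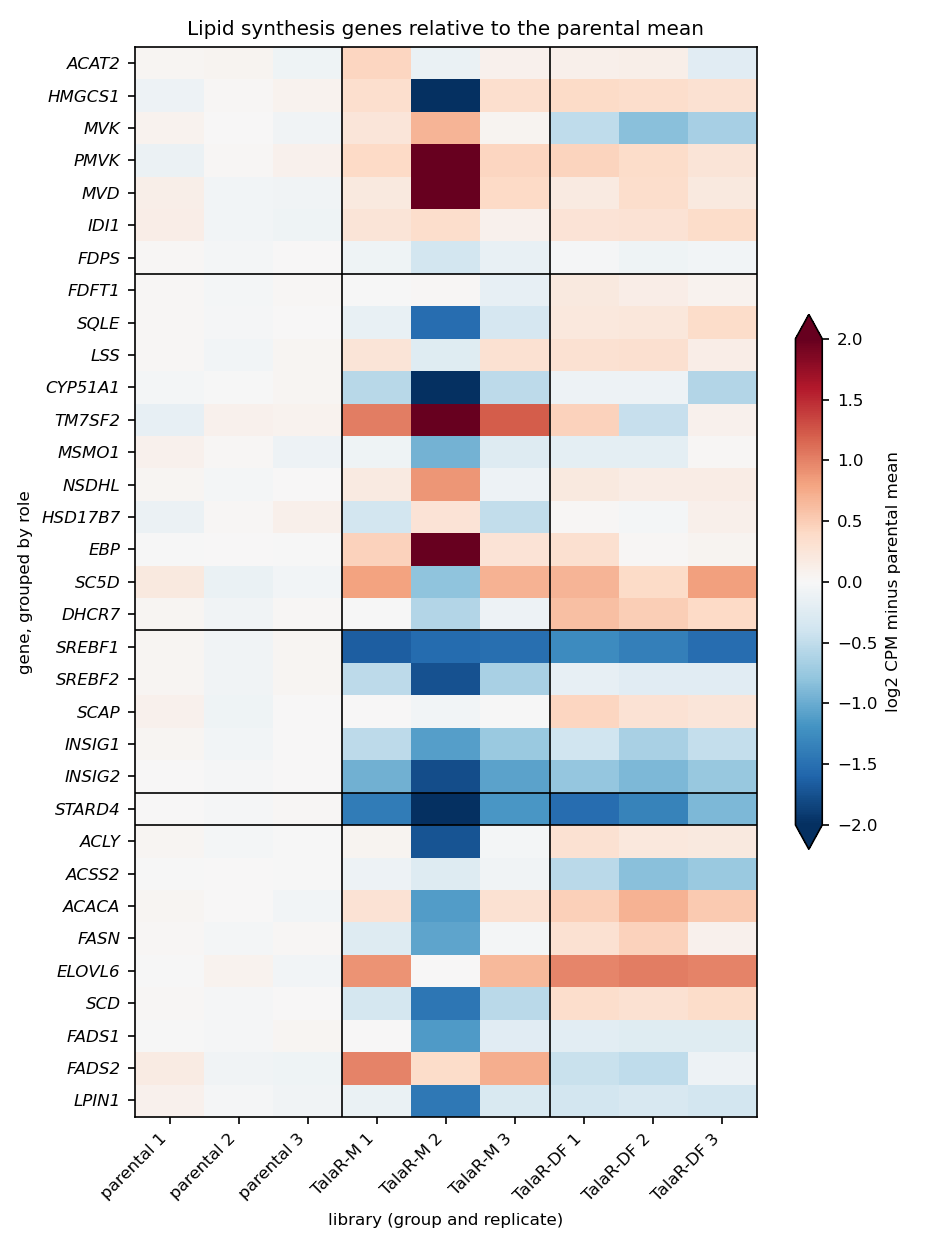
Log2 CPM of the 33 members (rows, ordered by role) in the 9 libraries (columns), each minus the mean of the parental libraries, with colours ending at 2 in either direction. SREBF1, INSIG2 and STARD4 are low in all 6 TalaR libraries, and the TalaR-M replicate 2 column differs from its neighbours in most rows.

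Decreases were found among the regulators. In TalaR-M cells 4 of the 5 regulators fell and none rose (0 higher at an unadjusted p under 0.05 in limma), with a median log2 fold change of −0.97, or −0.63 without replicate 2. In TalaR-DF cells 2 of the 5 fell, with a median of −0.51, and without TalaR-M replicate 2, 4 fell and 1 rose. Among all genes tested 13.2% and 11.8% fell over all libraries, and 30% and 30.4% without that library. SREBF1, SREBF2, INSIG1 and INSIG2 were lower than in any parental library in each of the 6 TalaR libraries. The share of all genes without such overlap was not counted. Small differences could also come without overlap, as for FDFT1 and EBP, each 0.13 higher in TalaR-DF than in parental cells on the log2 scale. In bulk RNA such as this, fewer cells expressing a gene and less RNA per cell cannot be told apart.

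SREBF1 had the decrease with the lowest adjusted p of all members. It read 7.10, 6.999 and 7.10 log2 CPM in parental cells, 5.42, 5.53 and 5.56 in TalaR-M cells and 5.80, 5.71 and 5.54 in TalaR-DF cells. The TalaR libraries lay far below the parental ones, and the 2 TalaR groups overlapped. The log2 fold change was −1.56 ± 0.12 (SE) in TalaR-M cells, a level 2.95-fold lower (adjusted p = 4.37e-05), and −1.38 ± 0.12 in TalaR-DF cells, 2.61-fold lower (adjusted p = 0.000116). SREBF1 in TalaR-M replicate 2 deviated by 0.04 log2 units from the other TalaR-M libraries, and the value without that library was −1.57 ± 0.08. Between the TalaR groups it differed by −0.18 ± 0.12 (adjusted p = 0.328). SREBF1 lies on chromosome 17 from 17810399 to 17837002, and 2.45% of its exon bases are shared with RAI1 on the other strand. Both calls held under each of the 18 alternative fits. The reads were counted per gene, so that the isoforms SREBP-1a and SREBP-1c were not told apart.

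INSIG2, one of the anchors that retain SCAP in the endoplasmic reticulum, read 5.44, 5.40 and 5.43 log2 CPM in parental cells, 4.46, 3.65 and 4.36 in TalaR-M cells and 4.64, 4.53 and 4.67 in TalaR-DF cells. All TalaR libraries were below all parental ones, and the lowest value was that of TalaR-M replicate 2. The log2 fold change was −1.27 ± 0.21 in TalaR-M cells (adjusted p = 0.00354), or −1.02 ± 0.08 without replicate 2, and −0.81 ± 0.21 in TalaR-DF cells (adjusted p = 0.0326). The TalaR-M call held under all 18 alternative fits. The TalaR-DF call was lost when any single parental or TalaR-DF library was left out with TalaR-M replicate 2 kept (adjusted p up to 0.114), and was far stronger without TalaR-M replicate 2 (adjusted p = 2.01e-06).

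INSIG1, the other anchor and itself a target of the SREBPs, read 5.83, 5.73 and 5.80 log2 CPM in parental cells, 5.26, 4.69 and 5.05 in TalaR-M cells and 5.39, 5.14 and 5.30 in TalaR-DF cells. It was lower in every TalaR library than in every parental one. In TalaR-M cells it fell by 0.79 ± 0.17 on the log2 scale (adjusted p = 0.0109, and 0.0502 without parental replicate 1). The difference in TalaR-DF cells was −0.51, with an adjusted p of 0.0747 over all 9 libraries and 0.000217 without TalaR-M replicate 2.

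SREBF2, the gene of the factor that acts mostly on cholesterol genes, read 7.24, 7.13 and 7.25 log2 CPM in parental cells, 6.68, 5.47 and 6.55 in TalaR-M cells and 7.04, 6.98 and 6.98 in TalaR-DF cells. The 3 groups did not overlap, with TalaR-DF cells just below parental cells. The log2 fold change in TalaR-M cells was −0.97 ± 0.29 (adjusted p = 0.042), and −0.59 ± 0.06 without replicate 2 (adjusted p = 9.1e-06), so that this library moved the difference by more than 1.5 times on the log2 scale. The call over all libraries was lost when any single parental or TalaR-DF library was left out (adjusted p up to 0.125). In TalaR-DF cells the difference was −0.21 (adjusted p = 0.725 over all libraries and 0.00694 without TalaR-M replicate 2). Without that library SREBF2 was lower in TalaR-M than in TalaR-DF cells by 0.38 (log2 difference −0.38, adjusted p = 0.000456), and over all libraries the difference was −0.76 (adjusted p = 0.124).

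SCAP, the escort of the SREBP precursors, was the exception among the regulators. It read 7.09, 6.92 and 7.01 log2 CPM in parental cells, 7.01, 6.95 and 7.0 in TalaR-M cells and 7.44, 7.30 and 7.25 in TalaR-DF cells. TalaR-M and parental cells overlapped, with a log2 difference of −0.02 ± 0.11. TalaR-DF cells were above both, at 0.32 over parental cells (adjusted p = 0.0918 over all libraries and 0.000956 without TalaR-M replicate 2).

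**Figure D3:**
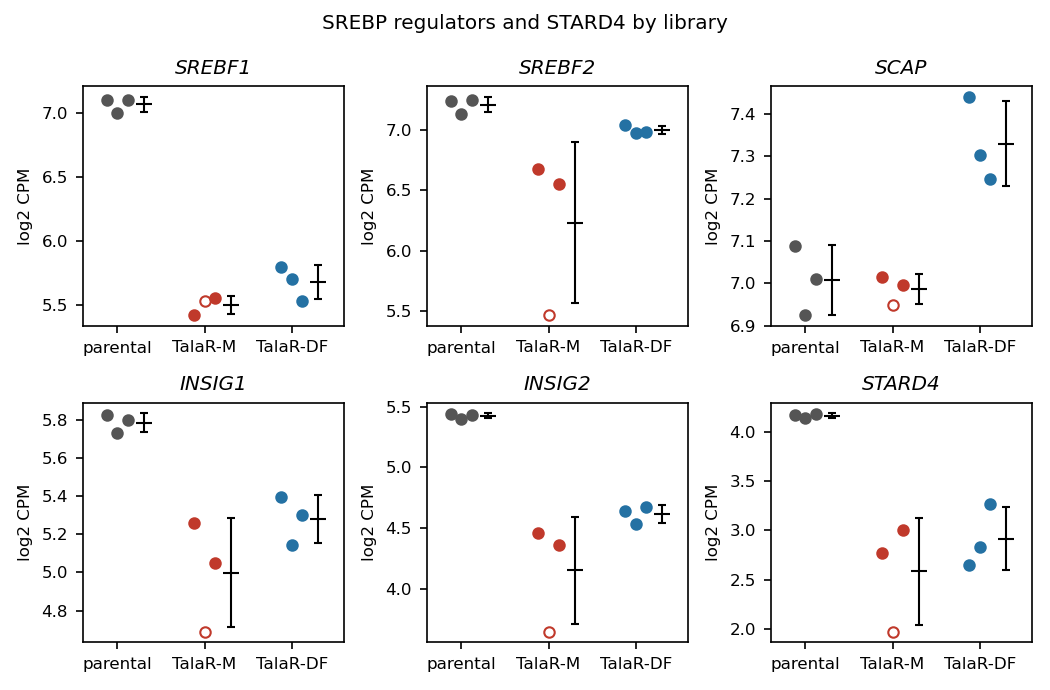
Log2 CPM of SREBF1, SREBF2, SCAP, INSIG1, INSIG2 and STARD4 in each library (points) with the mean ± SD of the 3 libraries of a group (bars), the open symbol being TalaR-M replicate 2. SREBF1, SREBF2, INSIG1, INSIG2 and STARD4 lie below the parental libraries in all 6 TalaR libraries, and SCAP does not. How many of all genes do so was not counted.

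STARD4 carries cholesterol between membranes and is a target of SREBP-2. It read 4.17, 4.14 and 4.18 log2 CPM in parental cells, 2.77, 1.97 and 3.01 in TalaR-M cells and 2.65, 2.83 and 3.27 in TalaR-DF cells. The parental libraries lay close together and far above the TalaR ones, which overlapped each other. The log2 fold change was −1.58 ± 0.28 in TalaR-M cells (adjusted p = 0.00465), or −1.28 ± 0.17 without replicate 2, and −1.25 ± 0.28 in TalaR-DF cells (adjusted p = 0.0166). The TalaR-M call held under all 18 alternative fits. The TalaR-DF call was lost when any parental library, or TalaR-DF replicate 1 or 2, was left out with TalaR-M replicate 2 kept (adjusted p up to 0.0709).

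The mevalonate arm builds farnesyl diphosphate from acetyl-CoA, and the number of its enzymes that passed depended on TalaR-M replicate 2. Over all 9 libraries 0 of its 7 enzymes passed in limma in TalaR-M cells against parental cells, 0 also at an unadjusted p under 0.05, and 3 of 7 passed as higher without replicate 2, with median log2 fold changes of 0.23 and 0.26. In TalaR-DF cells 1 of 7 was lower, and without TalaR-M replicate 2 another 4 were higher, with a median of 0.24. Without that library 60.2% of all genes tested passed in TalaR-M cells, and 62.9% did in TalaR-DF cells, the shares to read beside these counts and those of the other arms. HMGCS1, which makes HMG-CoA, showed how much rested on 1 library. It read 5.29, 5.41 and 5.45 log2 CPM in parental cells, 5.72, 2.93 and 5.71 in TalaR-M cells and 5.76, 5.73 and 5.69 in TalaR-DF cells. TalaR-M replicate 2 was far below all other libraries, and the rest of the TalaR libraries were all above the parental ones. The log2 fold change in TalaR-M cells was −0.59 ± 0.66 with that library and 0.34 ± 0.07 without it (adjusted p = 0.00164), and in TalaR-DF cells 0.34 (adjusted p = 0.000562 without TalaR-M replicate 2, and 0.817 with it).

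MVK, the mevalonate kinase, was the one enzyme of this arm that passed over all libraries. It read 4.06, 3.99 and 3.91 log2 CPM in parental cells, 4.24, 4.67 and 4.05 in TalaR-M cells and 3.48, 3.15 and 3.33 in TalaR-DF cells. The TalaR-DF libraries lay below all others. MVK was lower in TalaR-DF than in parental cells (log2 fold change −0.67 ± 0.19, adjusted p = 0.0426) and higher in TalaR-M than in TalaR-DF cells (log2 difference 1.00 ± 0.19, adjusted p = 0.0124). The first call was lost when any single parental or TalaR-DF library, or TalaR-M replicate 1, was left out (adjusted p up to 0.156), and also under median-ratio rescaling (adjusted p = 0.0866), a pseudocount of 8 CPM or a replicate block. The second was lost without TalaR-DF replicate 2 or 3 (adjusted p up to 0.0609). Without TalaR-M replicate 2 the adjusted p values were 0.000242 and 0.000217.

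PMVK and MVD, the next enzymes of the arm, had short transcripts and read high in TalaR-M replicate 2, at 7.08 and 6.60 log2 CPM against 5.01 to 5.04 and 4.41 to 4.61 in the other TalaR-M libraries. Without it they were 0.42 and 0.29 log2 units above parental cells under drug, and 0.36 and 0.24 in TalaR-DF cells (adjusted p between 0.00222 and 0.0464). IDI1, which isomerizes isopentenyl diphosphate, differed by 0.31 in TalaR-DF cells (adjusted p = 0.177, and 0.00887 without TalaR-M replicate 2). FDPS, which makes farnesyl diphosphate, stayed between 5.55 and 5.94 in all 9 libraries, and ACAT2, which joins acetyl-CoA units, between 4.24 and 4.91. Neither of these passed against parental cells in either fit. FDPS and IDI1 have 8 and 3 annotated pseudogenes, and 29.9% of the exon bases of ACAT2 lie across from TCP1 on the other strand, so that their counts are less certain.

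In the sterol arm, which runs from squalene to cholesterol, 1 of 11 enzymes passed over all 9 libraries in TalaR-M cells, as higher, and 0 of 11 in TalaR-DF cells in limma (1 at an unadjusted p under 0.05), with median log2 fold changes of −0.05 and 0.13. Without TalaR-M replicate 2, 4 were higher and 3 lower in TalaR-M cells, and 4 were higher in TalaR-DF cells. The enzyme that passed was TM7SF2, a sterol reductase acting after lanosterol. It read 1.17, 1.41 and 1.41 log2 CPM in parental cells, 2.35, 4.15 and 2.55 in TalaR-M cells and 1.78, 0.86 and 1.42 in TalaR-DF cells. It was low in all groups, and the TalaR-M libraries were above all others. The log2 fold change against parental cells was 1.68 ± 0.46 (adjusted p = 0.0311), and 1.12 ± 0.23 without replicate 2 (adjusted p = 0.00114). The call over all libraries was lost when any parental library or TalaR-DF replicate 3 was left out (adjusted p up to 0.105). TM7SF2 was higher in TalaR-M than in TalaR-DF cells by 1.09 without replicate 2 (adjusted p = 0.00191) and by 1.66 with it (adjusted p = 0.0522).

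The late enzymes SC5D and DHCR7 act on the last double bonds of the sterol ring. SC5D read 4.31, 3.98 and 4.05 log2 CPM in parental cells, 4.92, 3.31 and 4.81 in TalaR-M cells and 4.79, 4.49 and 4.93 in TalaR-DF cells. Except in TalaR-M replicate 2, the TalaR libraries were above the parental ones, by 0.75 in TalaR-M and 0.62 in TalaR-DF cells without that library (adjusted p = 0.000602 and 0.000917), and by 0.23 and 0.62 with it (adjusted p = 0.686 and 0.37). DHCR7 read 6.44, 6.33 and 6.41 in parental cells, 6.39, 5.82 and 6.29 in TalaR-M cells and 7.0, 6.89 and 6.79 in TalaR-DF cells. TalaR-DF cells were above both other groups. DHCR7 was lower in TalaR-M than in TalaR-DF cells (log2 difference −0.73 ± 0.17, adjusted p = 0.0269), or −0.55 ± 0.07 without replicate 2 (adjusted p = 8.25e-05). With that library kept, the call was lost when any parental or TalaR-DF library was left out (adjusted p up to 0.109).

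SQLE, the squalene epoxidase and a step that limits the rate of sterol synthesis, read 6.78, 6.73 and 6.76 log2 CPM in parental cells, 6.61, 5.24 and 6.42 in TalaR-M cells and 6.97, 6.99 and 7.12 in TalaR-DF cells. The 3 groups did not overlap, in the order TalaR-M, parental, TalaR-DF. Without TalaR-M replicate 2 the log2 differences from parental cells were −0.24 in TalaR-M cells (adjusted p = 0.0129) and 0.27 in TalaR-DF cells (adjusted p = 0.00312), and TalaR-M cells were 0.51 below TalaR-DF cells (log2 difference −0.51, adjusted p = 0.000135). Over all 9 libraries none of these passed (adjusted p between 0.0994 and 0.675). LSS, which closes squalene epoxide into lanosterol, was 0.28 and 0.25 above parental cells in the fit without that library (adjusted p = 0.0059 and 0.00523). FDFT1, the squalene synthase, differed by at most 0.13 from parental cells in either TalaR group and in either fit.

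The remaining sterol enzymes did not pass over all 9 libraries. CYP51A1, the lanosterol demethylase, read 2.69 to 2.77 log2 CPM in parental cells, 2.18 and 2.21 in TalaR-M replicates 1 and 3, and was listed at 0 in TalaR-M replicate 2. Without that library it was lower in TalaR-M cells (log2 fold change −0.53, adjusted p = 0.0123), as was HSD17B7 (−0.43, adjusted p = 0.00691), a reductase of sterol intermediates. EBP, the sterol isomerase, was higher (0.37, adjusted p = 0.00585). Counts of CYP51A1 and EBP are uncertain, because 89.6% and 57.1% of their exon bases are shared with another annotated gene on the same strand, and CYP51A1 and HSD17B7 have 3 and 2 pseudogenes. MSMO1 and NSDHL, which remove methyl groups from the sterol ring, did not pass in either fit.

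Among the 9 genes of the fatty acid arm, 1 was higher and 0 lower in limma in TalaR-M cells over all libraries (2 and 1 at an unadjusted p under 0.05), and 1 was higher and 1 lower in TalaR-DF cells, with median log2 fold changes of −0.45 and 0.24. Without TalaR-M replicate 2, 3 were higher and 2 lower in TalaR-M cells, with a median of −0.08, and 5 were higher and 4 lower in TalaR-DF cells, all 9 of them, where 62.9% of all genes passed. ELOVL6, which lengthens palmitate, read 5.75, 5.83 and 5.70 log2 CPM in parental cells, 6.66, 5.76 and 6.41 in TalaR-M cells and 6.74, 6.78 and 6.76 in TalaR-DF cells. Only TalaR-M replicate 2 among the TalaR libraries lay in the parental range. The level was 2.00-fold that of parental cells in TalaR-DF cells (log2 fold change 1.00 ± 0.22, adjusted p = 0.0139). In TalaR-M cells it was 0.52 higher over all libraries (adjusted p = 0.119) and 0.78 higher without replicate 2 (adjusted p = 4.89e-06). With replicate 2 kept, the TalaR-DF call was lost without parental replicate 1 or 3 or any TalaR-DF library (adjusted p up to 0.0597), and the difference stayed between 0.97 and 1.03.

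ACSS2 makes acetyl-CoA from acetate. It read 5.35, 5.38 and 5.35 log2 CPM in parental cells, 5.27, 5.10 and 5.29 in TalaR-M cells and 4.82, 4.53 and 4.62 in TalaR-DF cells. The TalaR-DF libraries lay below all others. It was lower in TalaR-DF than in parental cells (log2 fold change −0.71 ± 0.13, adjusted p = 0.00705), a call that held under all 18 alternative fits. It was higher in TalaR-M than in TalaR-DF cells (log2 difference 0.56 ± 0.13, adjusted p = 0.0292, and 0.62 ± 0.09, adjusted p = 0.000174, without TalaR-M replicate 2). The second call was lost when any parental library, TalaR-M replicate 1 or 3, or TalaR-DF replicate 2 or 3 was left out (adjusted p up to 0.124).

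ACLY, ACACA and FASN carry citrate to palmitate: ACLY releases acetyl-CoA, ACACA makes malonyl-CoA and FASN joins the units. All were above parental cells in all 3 TalaR-DF libraries, by 0.24, 0.56 and 0.28 on the log2 scale. These passed without TalaR-M replicate 2 (adjusted p = 0.00379, 1.33e-05 and 0.0192) and did not pass with it (adjusted p between 0.349 and 0.8). ACACA read 7.54, 7.51 and 7.45 log2 CPM in parental cells, 7.78, 6.38 and 7.81 in TalaR-M cells and 7.97, 8.20 and 8.02 in TalaR-DF cells. TalaR-M replicate 2 was the lowest of all libraries, and it turned the direction in TalaR-M cells, from 0.30 without it (adjusted p = 0.00384) to −0.17 with it (adjusted p = 0.726). In TalaR-M cells without replicate 2, ACLY and FASN differed from parental cells by 0.01 and −0.15 (adjusted p = 0.953 and 0.236).

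The desaturases went separate ways. SCD, which makes oleate from stearate, read 9.46, 9.41 and 9.45 log2 CPM in parental cells, 9.08, 8.0 and 8.90 in TalaR-M cells and 9.78, 9.74 and 9.80 in TalaR-DF cells. The 3 groups did not overlap, with TalaR-M cells lowest and TalaR-DF cells highest. SCD was lower in TalaR-M than in TalaR-DF cells (log2 difference −1.11 ± 0.26, adjusted p = 0.0283), and −0.78 ± 0.07 without replicate 2 (adjusted p = 5.45e-06). With that library kept, the call was lost when any parental or TalaR-DF library was left out (adjusted p up to 0.104). Against parental cells the log2 differences without TalaR-M replicate 2 were −0.45 in TalaR-M cells (adjusted p = 0.000244) and 0.33 in TalaR-DF cells (adjusted p = 0.000841), and neither passed with it (−0.78, adjusted p = 0.063, and 0.33, adjusted p = 0.478).

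FADS2, the first desaturase of polyunsaturated fatty acids, had the opposite order at a much lower level. It read 2.65, 2.41 and 2.41 log2 CPM in parental cells, 3.48, 2.86 and 3.21 in TalaR-M cells and 2.05, 1.97 and 2.38 in TalaR-DF cells. TalaR-M cells were highest and TalaR-DF cells lowest, without overlap. FADS2 exceeded parental cells in TalaR-M cells (log2 fold change 0.69 ± 0.20, adjusted p = 0.0392) and also exceeded TalaR-DF cells there (log2 difference 1.05 ± 0.20, adjusted p = 0.0128). Without TalaR-M replicate 2 these were 0.86 ± 0.16 (adjusted p = 0.000673) and 1.21 ± 0.16 (adjusted p = 8.33e-05). The first call was lost when any other single library was left out (adjusted p up to 0.129), and the second without TalaR-DF replicate 1 or 2 (adjusted p up to 0.062). FADS1, its neighbour on chromosome 11, lies on the other strand over part of the same locus and read 6.55 to 6.84 in all libraries but TalaR-M replicate 2 (5.67). It was lower in TalaR-DF than in parental cells by the fit without that library (log2 fold change −0.23, adjusted p = 0.00745, and 0.658 with it). LPIN1, a phosphatidate phosphatase, was lower in both groups by that fit (−0.22 in TalaR-M cells, adjusted p = 0.0312, and −0.35 in TalaR-DF cells, adjusted p = 0.00097). With that library the values were −0.62 (adjusted p = 0.175) and −0.35 (adjusted p = 0.544).

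**Figure D4:**
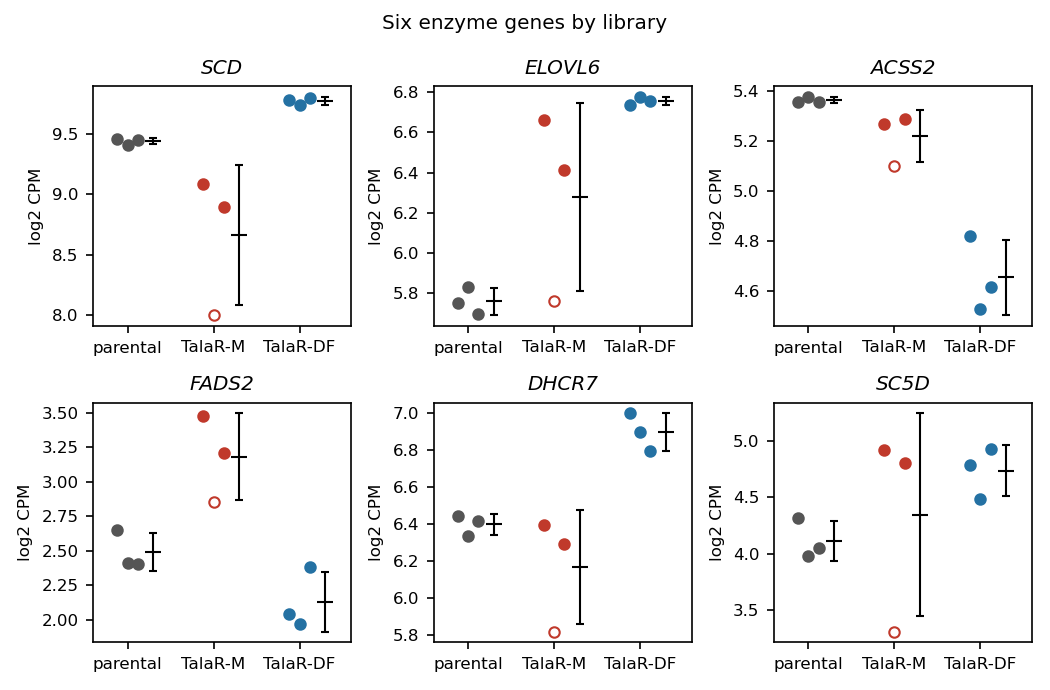
Log2 CPM of SCD, ELOVL6, ACSS2, FADS2, DHCR7 and SC5D in each library (points) with the mean ± SD of the 3 libraries of a group (bars), the open symbol being TalaR-M replicate 2. SCD and DHCR7 are highest in TalaR-DF cells, FADS2 is highest in TalaR-M cells and ACSS2 is lowest in TalaR-DF cells.

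The 2 TalaR groups were then compared with each other, which asks how the genes stood with and without drug. Over all 9 libraries MVK, ACSS2 and FADS2 were higher and DHCR7 and SCD lower in TalaR-M than in TalaR-DF cells, 3 and 2 of 33 members, where 7.79% of all genes tested were higher and 4.25% lower. The median log2 difference of the members was −0.27 (all genes −0.09). Without TalaR-M replicate 2, 4 members were higher and 11 lower, where 23.5% of all genes were higher and 25.3% lower, and the median was −0.13 (all genes −0.02). The 15 members that passed made up 45.5% of the set against 48.8% of all genes. TM7SF2 joined the higher members in that fit. The 11 lower ones were FDFT1, SQLE, HSD17B7 and DHCR7 of the sterol arm, the regulators SREBF2 and SCAP, and ACLY, ACACA, FASN, ELOVL6 and SCD of the fatty acid arm. The log2 differences of these 11 ran from −0.22 to −0.78. SREBF1, INSIG1, INSIG2 and STARD4 did not pass between the TalaR groups in either fit, with differences of −0.18, −0.28, −0.46 and −0.33 over all libraries and −0.19, −0.13, −0.21 and −0.03 without TalaR-M replicate 2.

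**Figure D5:**
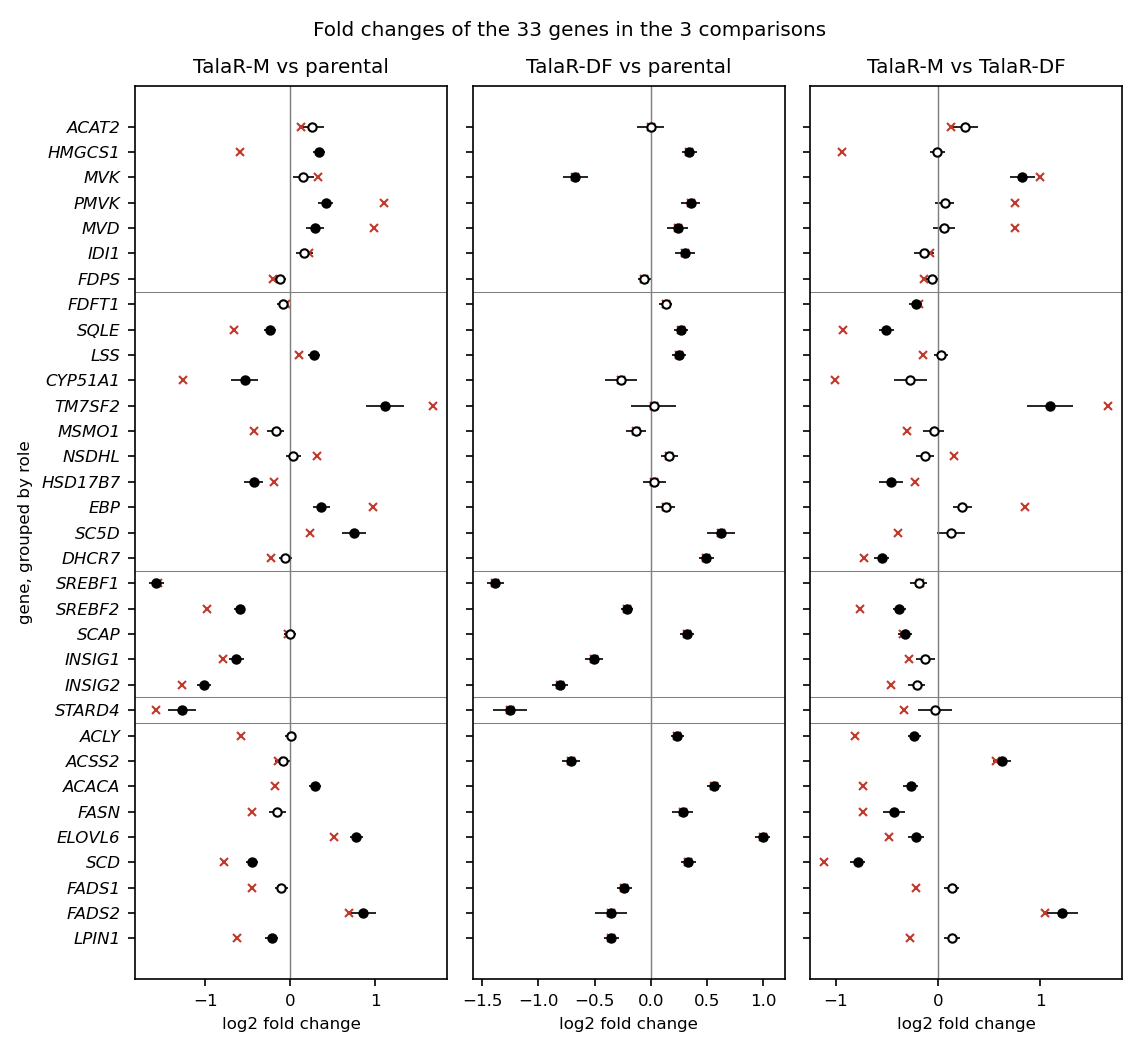
Log2 differences of the 33 members in the 3 comparisons (x axis) by gene (y axis). Circles with bars are the values ± SE without TalaR-M replicate 2, filled where the adjusted p was under 0.05, and red crosses are the values from all 9 libraries, which coincide with the circles for TalaR-DF against parental cells. SREBF1, INSIG2 and STARD4 lie far to the left in both comparisons with parental cells.

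Levels of different genes were compared per kilobase of the canonical transcript. In parental cells SCD, ACLY and FASN had the highest levels, at 132, 102 and 77.6 CPM per kb, followed by FDFT1 at 47.3 and FDPS at 42.6. The lowest were TM7SF2 at 1.60, FADS2 at 1.82, CYP51A1 at 2.10 and SC5D at 2.54. On the same scale SREBF1 stood at 27.4 in parental cells, 9.19 in TalaR-M cells without replicate 2 and 10.5 in TalaR-DF cells, and SREBF2 at 28.2, 18.7 and 24.4. SREBF1 and SREBF2, which stood side by side in parental cells, thus stood apart in both TalaR groups. SCD stood at 97.1 CPM per kb in TalaR-M cells without replicate 2 and at 167 in TalaR-DF cells.

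Genes that act beside the members were counted from 7 lists written from general knowledge. Counts and folds are those over all 9 libraries unless TalaR-M replicate 2 is said to be left out, and the counts depended strongly on that library. Of 10 genes that process or degrade the SREBPs and their partners, 1 rose and 1 fell in both groups. With that library left out, 4 rose and 3 fell in TalaR-M cells, while 7 rose and 3 fell in TalaR-DF cells. The genes that passed over all libraries were UBE2G2, a ubiquitin-conjugating enzyme of the endoplasmic reticulum (log2 fold change 0.72 in TalaR-M and 0.68 in TalaR-DF cells), and the deubiquitinase USP20 (−0.50 and −0.55). Of 11 tested genes of sterol uptake, transport and esterification, 1 rose and 3 fell in TalaR-M cells, and 2 fell and none rose in TalaR-DF cells in limma (0 higher at an unadjusted p under 0.05). When TalaR-M replicate 2 was dropped, 2 rose and 6 fell in TalaR-M cells, while 3 rose and 6 fell in TalaR-DF cells. GRAMD1B, which moves cholesterol from the plasma membrane, fell by 2.64 on the log2 scale in TalaR-M and by 1.42 in TalaR-DF cells. SCARB1, the HDL receptor, fell by 0.64 and 0.53. Of 7 genes of the LXR factors, which answer to high sterols, and their targets, 2 fell in TalaR-M and 3 in TalaR-DF cells, and none rose in limma (1 and 0 higher at an unadjusted p under 0.05). In the fit lacking TalaR-M replicate 2, 2 rose and 4 fell in TalaR-M cells, while 4 fell in TalaR-DF cells.

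The LXR targets included the sterol exporter ABCG1, with mean values of 4.45 log2 CPM in parental, 1.87 in TalaR-M and 0.02 in TalaR-DF cells (adjusted p = 0.0018 and 0.000103). Its TalaR-DF level is at the floor of the table. PLTP, which transfers phospholipids, fell by 0.95 and 0.96. NR1H3, the gene of LXR alpha, fell by 1.07 in TalaR-DF cells (adjusted p = 0.0438) and differed by −0.47 in TalaR-M cells (adjusted p = 0.282), or by −0.85 without replicate 2 (adjusted p = 0.000114). Of 14 genes that use isoprenoids, 2 rose and 1 fell in both groups. Once TalaR-M replicate 2 was excluded, 3 rose and 4 fell in TalaR-M cells, while 8 rose and 2 fell in TalaR-DF cells. The genes that passed over all libraries were COQ2 (0.82 and 0.69) of coenzyme Q synthesis, the methyltransferase ICMT (0.55 and 0.51), and GGPS1 (−0.48 and −0.60), which makes geranylgeranyl diphosphate.

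Of 18 tested genes of fatty acid elongation and activation, 2 rose and 1 fell in TalaR-M cells, and 1 rose and 1 fell in TalaR-DF cells. With TalaR-M replicate 2 left out, 5 rose and 8 fell in TalaR-M cells, while 5 rose and 7 fell in TalaR-DF cells. In TalaR-DF cells ACSL1, an acyl-CoA synthetase, rose by 1.44 (adjusted p = 0.0115) and MLXIPL, the glucose-responsive factor ChREBP, fell by 1.89 (adjusted p = 0.0181). Of 15 tested genes of fatty acid oxidation, 2 were lower in TalaR-M and 1 was lower in TalaR-DF cells, and none rose in limma (5 and 2 higher at an unadjusted p under 0.05). When TalaR-M replicate 2 was dropped, 5 rose and 6 fell in TalaR-M cells, while 4 rose and 6 fell in TalaR-DF cells. The gene lower in TalaR-DF cells over all libraries was CPT1C, with a mean of 1.77 log2 CPM in parental cells and listed at 0 in all TalaR-DF libraries. Of 16 genes of glycerolipids and lipid droplets, 2 rose and 3 fell in TalaR-M cells, and 3 fell and none rose in TalaR-DF cells in limma (1 higher at an unadjusted p under 0.05). In the fit lacking TalaR-M replicate 2, 4 rose and 7 fell in TalaR-M cells, while 1 rose and 10 fell in TalaR-DF cells. PLIN2, which coats lipid droplets, fell by 1.47 in TalaR-M and by 0.68 in TalaR-DF cells, and PLIN4 by 1.42 and 1.47. MGLL, the monoglyceride lipase, was higher in TalaR-M cells (0.95, adjusted p = 0.0339) and lower in TalaR-DF cells (−1.74, adjusted p = 0.00245) than in parental cells. Its mean was 2.19 log2 CPM in parental and 0.45 (SD 0.53) in TalaR-DF cells, near the floor of the table, so that the size of the decrease is uncertain. The shares of all genes that passed in each fit, given with the first counts, apply to these lists as well. They do not apply to the counts at an unadjusted p.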

How the data were processed

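The analysis used the 9 PSN1 libraries of the parental, maintained and drug-free groups, 3 per group, out of 48 samples. The other 39 samples were not analysed here. The libraries were stranded and made from poly(A) RNA. Values were deposited by the authors as log2 CPM, with a prior count of 1 in proportion to library size, and negative values stand as 0. The unit was read from the values, which step by whole reads within a library. The submitters' processing notes name build hg38. The aligner, the counter, its use of strand and the annotation are not given in the sources used here. Reads of genes at or under 1 CPM cannot be recovered, so no count test was run and precision at low levels is limited by depth.

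The test covered the 12471 genes that exceeded 1 CPM in 3 or more libraries. A linear model of the 3 groups was fitted with limma 3.58.1 in R 4.3.3, with moderated tests and a mean-variance trend, on the deposited values without a further pseudocount, and p-values were adjusted by Benjamini-Hochberg over all genes tested. The test was checked on simulated counts with the same spread set for every library. That check held no library like TalaR-M replicate 2, so it cannot show how the test behaves with such a library. The same fit was repeated without TalaR-M replicate 2. Alternatives comprised adding 0.1 or 8 CPM as a pseudocount, dropping the filter or raising it to 5 CPM, median-ratio rescaling, no trend, array weights, only the 2 groups compared, a replicate block, a 2-fold minimum and leaving out each library in turn.

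All 33 members are named. From each other list the genes with the 2 highest and the 2 lowest fold changes among those that passed in TalaR-DF cells are named. The members and lists were chosen with earlier results of these data known, and the promoters of SREBF1, INSIG1 and STARD4 were chosen for display after their values were seen. In 7 cases a listed gene was matched by an older symbol. Gene positions, lengths and overlaps came from GENCODE 44 on GRCh38, matched by symbol for 93.7% of the genes tested, and promoters from RefSeq on GRCh38.p14. One leukocyte marker is not reported here. No replicates agreed within sampling noise. Plots were made in Python 3.11.15 (matplotlib 3.10.9).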

Additional observations from a re-analysis of the deposited data

How the results depend on the processing

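The counts of members that passed over all 9 libraries (2 higher and 5 lower in TalaR-M cells, 1 higher and 5 lower in TalaR-DF cells, 3 and 2 in TalaR-M against TalaR-DF cells) depended most on TalaR-M replicate 2. Leaving out 1 library at a time gave 0 to 10 higher and 3 to 10 lower in TalaR-M cells, 0 to 14 and 2 to 10 in TalaR-DF cells, and 0 to 4 and 0 to 11 between the TalaR groups, and the highest count was in each case that without TalaR-M replicate 2. Array weights, which gave that library a weight of 0.0133, gave 10 and 10, 16 and 10, and 4 and 11. Fitting only the 2 groups compared gave 0 and 4, 16 and 9, and 0 and 0 in limma. An added pseudocount of 8 CPM gave 1 and 5, 1 and 4, and 3 and 2, losing TM7SF2 in TalaR-M cells and MVK in TalaR-DF cells. Median-ratio rescaling subtracted a shift of −0.37 log2 from TalaR-M replicate 2, and so raised its values. It gave 3 and 6, 2 and 5, and 3 and 2: it added ELOVL6 and SCD in TalaR-M cells and DHCR7 and INSIG1 in TalaR-DF cells, and lost MVK there. Requiring a 2-fold change left 1 and 3, 0 and 2, and 1 and 1. Over all 12471 genes tested it left 690 and 963, 280 and 934, and 660 and 204. For the other alternatives, except the fit without TalaR-M replicate 2, shares over all genes were not counted. Their counts of members therefore cannot be set against those of any gene. A pseudocount of 0.1 CPM, no filter, a minimum of 5 CPM and no trend kept each of the 99 calls by gene and comparison.

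HMGCS1 and ACACA in TalaR-M against parental cells changed direction. HMGCS1 stood at −0.59 over all libraries, at 0.31 with array weights and at −1.06 to 0.34 when 1 library was left out. ACACA stood at −0.17, at 0.29 and at −0.42 to 0.30. The positive values are those with that library left out or weighted down. Another 35 changes of sign over the alternatives concerned values that passed neither over all libraries nor in the alternative concerned. Of the 18 calls over all libraries, 5 held under all 18 alternative fits: SREBF1 in both groups, ACSS2 in TalaR-DF cells, and INSIG2 and STARD4 in TalaR-M cells.

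The replicate numbers name the samples and were not used as pairs in the main fit. Deviations of same-numbered samples from their group means correlated between −0.42 and 0.22 across genes. These values cannot decide whether the samples were paired, because each mean is over 3 libraries and TalaR-M replicate 2 stood apart. With a replicate block the counts were 0 higher and 4 lower in TalaR-M cells, 1 higher and 4 lower in TalaR-DF cells, and 2 and 1 between the TalaR groups.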

Other observations

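One gene of sterol transport outside the members was chosen after its values were seen. NPC2, which hands cholesterol out of lysosomes, had mean values of 4.81 log2 CPM in parental, 6.36 in TalaR-M and 4.82 in TalaR-DF cells. On the log2 scale TalaR-M cells exceeded both other groups by 1.55 (adjusted p = 0.000547 and 0.00125, limma), and 1.37 higher without TalaR-M replicate 2 in both comparisons.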
